A study of Mus musculus with 12 samples.

Results

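Choroid plexus tissue of B6 mice was compared between postnatal day 14 (P14) and the adult age of 6 months (A6m), with 3 libraries at each age. The choroid plexus is a sheet of epithelial cells folded around a core of blood vessels and connective tissue in the brain ventricles. The members are all autosomal genes that reached at least 1 TPM, a transcript level scaled for transcript length and library total, in at least 3 of these 6 libraries, which was 13539 of the 44123 autosomal symbols and of the 52459 symbols in the deposited table. The mice carried no transgene or treatment that the labels name, each tissue went into Trizol for total RNA, and libraries were made with an mRNA kit and read as paired ends. The same table holds 3 libraries each of the embryonic age E12.5 and the day of birth (P0), whose levels are given here only to place a gene. The labels name neither sex, ventricle, time of dissection nor a batch, and they describe the specimens as independent, so the p-values measure the spread between 3 specimens an age. Values were tested as log2(TPM + 1) with limma over all 14295 genes that passed the filter on any chromosome, a gene is said to have risen or fallen where its Benjamini-Hochberg adjusted p was under 0.05, and every log2 difference is A6m minus P14 on that scale, which understates the change of low genes.

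The 2 ages differed in more than age. Xist, the long RNA that coats an inactive X chromosome, ranged from 0.515 to 0.808 TPM at P14 and from 148 to 155 TPM at A6m. The Y-linked helicase gene Ddx3y ranged from 80.1 to 93.2 TPM at P14 and from 0.122 to 0.366 TPM at A6m. The P14 tissue was thus Xist-low and Ddx3y-high in 3 of 3 libraries and the A6m tissue the reverse in 3 of 3, so age and sex cannot be told apart in any value below, and no library of either age carries the other pattern. P14 replicate 2 was higher in a few transcripts of hindbrain neurons and glia (Pcp2 9.30 TPM against 2.35 and 3.29 TPM in the other P14 libraries, Fabp7 20.8 TPM against 4.93 and 6.86 TPM), and P14 replicate 3 in the neutrophil transcripts S100a8 (28.7 TPM against 1.55 and 2.48 TPM) and S100a9, genes chosen after their values were seen. The tissue itself was choroid plexus at both ages: Ttr, the thyroid hormone carrier that is its most abundant messenger, took 15.2 to 16.9% of all TPM at P14 and 13.7 to 14.6% at A6m, and none of the 37 autosomal genes listed as markers of the epithelium was under the filter. The TPM files carry no read counts, so the depth of each library is unknown and no counting error can be given.

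The epithelium of the choroid plexus makes cerebrospinal fluid by moving ions and water from the blood side to the ventricle, and its tight junctions form the barrier between blood and fluid. Beneath it lie a basement membrane, fibroblasts, macrophages and capillaries whose walls are fenestrated. In mice the tissue grows fast before birth and slowly afterwards, and the epithelium keeps cilia on its surface. At P14 the mouse is still suckling and its brain is growing, whereas at 6 months it is a mature adult.

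Between P14 and A6m, 4205 of the 13539 genes passed the test, which is 31.1% of them. Of these, 1910 (14.1%) were higher at A6m and 2295 (17.0%) were lower, and these shares are the background against which every list below should be read. A difference of at least 2-fold on the log2(TPM + 1) scale was rarer, with 349 genes higher (2.58%) and 409 lower (3.02%). The libraries of the 2 ages did not overlap for 2911 genes that were higher (21.5%) and 3529 that were lower (26.1%). A gene under 1 TPM in every library of 1 age passed the filter only through the other age, so its ages could not overlap. The balance of rises and falls depended on the scale. After median-of-ratios scaling, which aligns the typical gene across libraries, 4794 genes passed (35.4%), of which 2631 were higher (19.4%) and 2163 lower (16.0%), so the share of calls that were higher went from 45.4 to 54.9%, and the median difference of all genes went from -0.03 to 0.02. On that scale 364 genes were at least 2-fold higher (2.69%) and 379 at least 2-fold lower (2.80%), and the ages did not overlap for 3703 genes that were higher (27.4%) and 3145 that were lower (23.2%). On both scales 3973 genes passed in the same direction (29.3%), 1907 of them higher and 2066 lower, and 0 passed in opposite directions. Pearson correlations of log2(TPM + 1) were 0.971 to 0.978 between libraries of 1 age and 0.940 to 0.947 across the ages, over genes that are not independent.

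**Figure D1:**
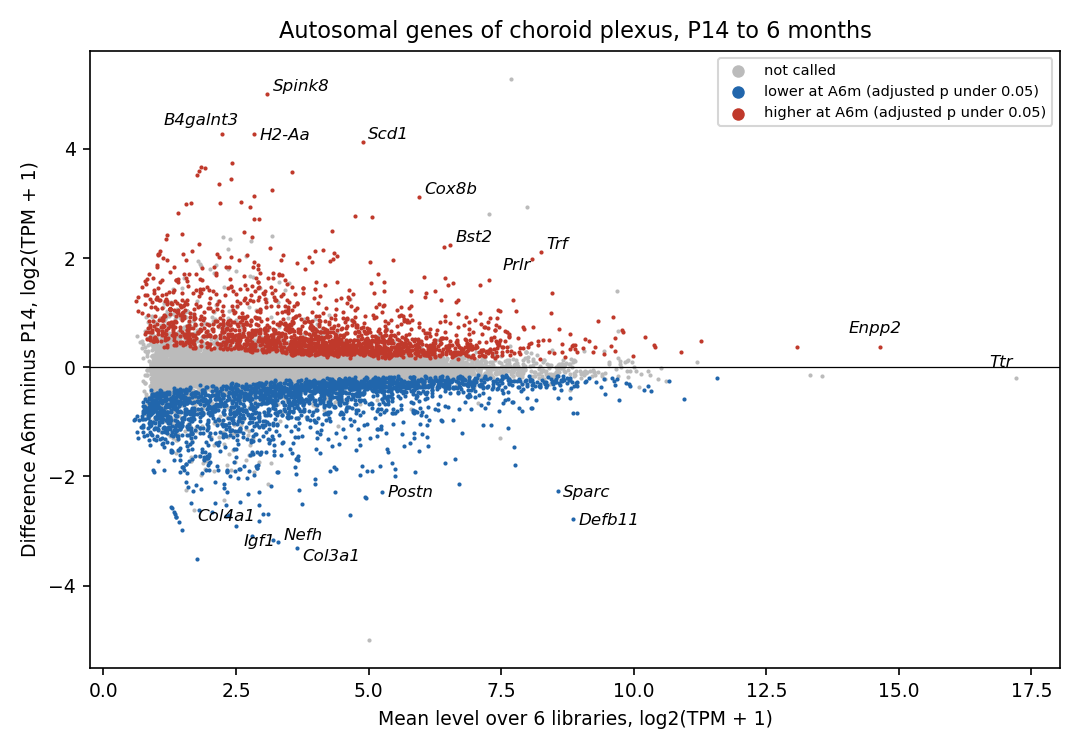
Each point is 1 of the 13539 autosomal genes, with its mean level over the 6 libraries on the x axis and its difference between the ages on the y axis, both in log2(TPM + 1). The highest and lowest points, at 5.28 and -4.99, are Rps27 and Rps27rt, which did not pass. The largest rises among the genes named reached 4 to 5 on the log2 scale at low and middle levels. Ttr and Enpp2, the most abundant genes named, moved by -0.20 and 0.37.

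The genes of MHC class II, which show peptides to helper T cells on the surface of antigen-presenting cells, had the highest median of all lists. Of 6 members that passed the filter, 5 rose and 0 fell, with a median difference of 3.47, against -0.03 over all genes. H2-Aa, the alpha chain of the I-A molecule, was measured at 0.726, 0.522 and 0.659 TPM at P14 and 32.0, 21.5 and 41.5 TPM at A6m. H2-Eb1, the beta chain of I-E, was measured at 0.664, 0.285 and 0.490 TPM at P14 and 17.8, 13.8 and 26.4 TPM at A6m. Both genes were under 1 TPM in every P14 library, so they passed the filter only through the A6m libraries. That the ages did not overlap for them follows from the filter and is no separate result. A6m replicate 3 was the highest and replicate 2 the lowest of the adult libraries. The differences were 4.27 ± 0.22 (SE), adjusted p = 5.7e-05, for H2-Aa and 3.74 ± 0.23 (SE), adjusted p = 1.1e-04, for H2-Eb1. The invariant chain Cd74, which escorts class II molecules through the cell, went from 2.40 ± 0.442 to 41.3 ± 14.4 TPM (SD, n = 3 at each age), and H2-Ab1, the partner of H2-Aa, from 0.427 ± 0.192 to 14.1 ± 5.03 TPM. H2-Ab1 too was under 1 TPM in every P14 library, so the list median rests in part on genes that passed only through A6m. H2-DMa, which helps to load the peptide, went from 1.67 to 2.37 TPM and did not pass. The other 5 of the 11 autosomal class II genes listed, among them the master regulator Ciita, were under the filter. At the younger ages H2-Aa stood at 0.114 TPM at E12.5 and 1.26 TPM at P0.

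Genes of MHC class I, which show peptides from inside the cell to cytotoxic T cells, rose by less. Of 15 members tested, 8 rose and 1 fell, with a median difference of 0.51. B2m, the light chain shared by all class I molecules, went from 212 ± 5.32 to 355 ± 47.1 TPM, and the classical heavy chain H2-K1 from 25.9 ± 2.12 to 53.5 ± 6.17 TPM. At P0 their means were 359 TPM (B2m) and 44.0 TPM (H2-K1), so both were lower at P14 than at birth. The non-classical heavy chain H2-T23 rose from 7.51 to 21.2 TPM and the peptide transporter subunit Tap2 from 6.90 to 14.8 TPM. Tap1, the partner of Tap2, went from 4.57 to 6.00 TPM and did not pass. Heavy chain genes resemble each other in sequence, so how reads were shared among them is uncertain. Without P14 replicate 3 the number that fell was 0.

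More genes rose in the interferon response than in any other list. These genes are switched on by type I and type II interferons and act against viruses. Of 34 members tested, 27 rose and 0 fell, with a median difference of 1.30. Ifit1, which binds viral RNA, was measured at 2.00, 1.06 and 1.33 TPM at P14 and 34.5, 17.1 and 14.1 TPM at A6m. Bst2, a membrane protein that tethers virus particles to the cell, was measured at 44.5, 38.6 and 43.0 TPM at P14 and 238, 184 and 186 TPM at A6m. The 3 adult libraries were above the 3 young ones for both genes, with A6m replicate 1 the highest for each. Ifit1 was among the 12 largest rises, for which a lack of overlap was a condition, so it is no result for that gene. The differences were 3.13 ± 0.32 (SE), adjusted p = 7.2e-04, for Ifit1 and 2.24 ± 0.11 (SE), adjusted p = 5.2e-05, for Bst2. Ifi27l2a went from 9.42 ± 1.65 to 71.9 ± 25.6 TPM and Rtp4 from 6.69 ± 2.99 to 30.3 ± 12.1 TPM. The 7 members that did not pass included Rsad2 (2.31 to 2.33 TPM), Irf1 (7.86 to 9.89 TPM) and Gbp2 (1.77 to 2.20 TPM). The summed level of the list was 391.6 to 506 TPM at P14 and 1183 to 1650.5 TPM at A6m. Of 4 interferon receptor genes, chosen after their values were seen, Ifnar1 fell from 16.6 to 11.3 TPM and Ifngr2 from 7.48 to 4.54 TPM, while Ifnar2 went from 70.4 to 62.6 TPM and Ifngr1 from 16.6 to 13.9 TPM without passing. At the younger ages Ifit1 stood at 0.712 TPM at E12.5 and 8.23 TPM at P0, with its P14 mean between these. Rtp4 stood at 9.86 TPM at E12.5 and 30.8 TPM at P0, both above its P14 mean.

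The 250 bases before the start sites of the listed genes were searched for the interferon-stimulated response element. It was written as GAAA, any 2 bases and GAAA again, on both strands. The promoters come from RefSeq, build GRCm38.p6. Of 21 interferon genes that rose and had a promoter in that table, 12 (57.1%) held a match, against 2 of 6 that did not pass, 3.11% of the 9631 genes tested that had a promoter and 2.98% of all 31396 promoters. Off the list, 43 of 286 genes with a match rose (15.03%), against 14.02% of the 9331 genes without one. The list was made of genes switched on by interferon, so its share of matches goes with that choice and is no result about age. The promoters of 5 genes that rose are printed 5′ to 3′ on the strand of the gene and end at the base before the start site, with matches in capitals (read as TTTC, 2 bases and TTTC where the match is on the other strand) and overlapping matches run together. Ifit1 and Bst2 are shown as the genes described above, and Isg15, Irgm1 and Oas1a, chosen after their values were seen, to show matches at other distances from the start.
Ifit1 promoter: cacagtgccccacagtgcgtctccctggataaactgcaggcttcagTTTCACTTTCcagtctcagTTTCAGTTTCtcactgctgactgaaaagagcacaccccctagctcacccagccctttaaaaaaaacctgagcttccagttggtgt
Bst2 promoter: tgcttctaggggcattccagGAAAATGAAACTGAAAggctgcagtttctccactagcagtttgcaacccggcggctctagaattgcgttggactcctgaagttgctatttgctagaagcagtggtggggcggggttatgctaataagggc
Isg15 promoter: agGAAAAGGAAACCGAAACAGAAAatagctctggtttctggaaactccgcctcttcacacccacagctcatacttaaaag
Irgm1 promoter: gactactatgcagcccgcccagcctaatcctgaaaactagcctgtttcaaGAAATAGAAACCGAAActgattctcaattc
Oas1a promoter: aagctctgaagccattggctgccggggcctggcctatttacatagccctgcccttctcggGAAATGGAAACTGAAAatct
These lie at chr19:34640739-34640888 on the plus strand (Ifit1), chr8:71537473-71537622 on the minus strand (Bst2), chr4:156200819-156200898 on the minus strand (Isg15), chr11:48871421-48871500 on the minus strand (Irgm1) and chr5:120907526-120907605 on the minus strand (Oas1a). The first match began 104 bases before the start of Ifit1, 130 before that of Bst2, 78 before that of Isg15, 30 before that of Irgm1 and 20 before that of Oas1a. Isg15, a ubiquitin-like protein, went from 1.75 to 10.4 TPM, the GTPase gene Irgm1 from 6.90 to 29.2 TPM and the RNA sensor gene Oas1a from 0.550 to 3.90 TPM. All 4 class II genes with a promoter in the table, H2-Aa, H2-Eb1, H2-DMb1 and the uncalled H2-DMa, held a CCAAT box (CCAAT, both strands), a motif present in 40.4% of the genes tested. The promoters of H2-Aa and H2-Eb1 are printed in the same way, with the box in capitals (read as ATTGG on the other strand).
H2-Aa promoter: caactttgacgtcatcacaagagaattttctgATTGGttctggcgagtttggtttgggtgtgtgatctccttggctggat
H2-Eb1 promoter: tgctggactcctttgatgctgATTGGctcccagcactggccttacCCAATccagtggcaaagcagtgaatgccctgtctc
They lie at chr17:34287824-34287903 on the minus strand (H2-Aa) and chr17:34305787-34305866 on the plus strand (H2-Eb1). A match is a string of letters and no evidence that a factor was bound.

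Among macrophage markers, falls outnumbered rises. Of 24 macrophage genes tested, 2 rose and 13 fell, with a median of -0.44. The number that fell was 7 without P14 replicate 1, 8 without P14 replicate 2, 7 without P14 replicate 3 and 6 without A6m replicate 1, and the number that rose was 1 without P14 replicate 1, 1 without P14 replicate 3 and 1 without A6m replicate 3. Mrc1, the mannose receptor of resident macrophages, was measured at 6.05, 4.98 and 6.72 TPM at P14 and 1.04, 0.815 and 1.79 TPM at A6m. The chemokine Pf4 fell from 7.29 ± 1.20 to 1.40 ± 0.607 TPM and P2ry12, a receptor of microglia and related cells, from 3.29 ± 1.08 to 0.696 ± 0.160 TPM. P2ry12 was under 1 TPM in every A6m library, so it passed the filter only through P14. Lyz2, the lysozyme of myeloid cells, moved the other way, from 15.5 ± 6.12 to 37.7 ± 8.08 TPM. Ptprc, a marker of most white cells, went from 1.16 to 1.62 TPM, Aif1 from 2.88 to 2.33 TPM and Cd68 from 2.82 to 2.33 TPM, and none passed. The summed level of all 29 autosomal macrophage genes was 145 to 158 TPM at P14 and 123 to 178 TPM at A6m, so the ranges overlapped. Of 26 lymphocyte and plasma cell genes, 23 were under the filter, T cell receptor and CD3 genes among them, and Cd52, a surface protein of lymphocytes and some myeloid cells, rose from 3.28 to 7.11 TPM. The summed level of that list was 18.2 to 20.4 TPM at P14 and 22.5 to 25.7 TPM at A6m, so it was higher at A6m without overlap. Its mean went from 19.1 to 24.6 TPM. Cd52 is part of this sum and made up much of its rise, so the sum does not show that lymphocyte genes rose as a group. Of 16 neutrophil genes 14 were under the filter, and S100a8 and S100a9 did not pass, though the number of neutrophil genes that fell was 1 without P14 replicate 1 or replicate 3. The summed neutrophil level was 5.51 to 87.4 TPM at P14 and 1.37 to 2.38 TPM at A6m. Dendritic cells were not covered by a list. What part these cells had in the class II levels was not tested.

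Of 15 complement genes tested, 4 rose and 4 fell, against 14.1% higher and 17.0% lower over all genes. The subcomponent C1s1 rose from 2.68 ± 0.591 to 5.23 ± 0.884 TPM and Cd59a, which blocks the membrane attack complex, from 113 ± 4.53 to 189 ± 1.39 TPM. Cd55, which speeds decay of the convertase on the cell surface, fell from 110.2 ± 2.13 to 67.4 ± 4.63 TPM. The number of complement genes that fell was 1 without P14 replicate 1, 2 without P14 replicate 3 and 2 without A6m replicate 1.

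Genes for collagens, the main fibres of connective tissue, had the lowest median but 1 of the lists with at least 5 genes tested, after the erythroid genes. Of 26 tested, 0 rose and 21 fell, with a median of -1.22. Col3a1, a fibrillar collagen of soft tissues, was measured at 43.0, 33.0 and 40.8 TPM at P14 and 3.96, 2.05 and 3.26 TPM at A6m. Its difference was -3.31 ± 0.19 (SE), adjusted p = 8.6e-05, the largest fall of the genes named, after means of 493 TPM at E12.5 and 113 TPM at P0. Col4a1 and Col4a2, the chains of the common collagen IV network of basement membranes and neighbours on chromosome 8, were measured at 25.9, 16.7 and 16.2 TPM at P14 and 1.36, 1.91 and 2.44 TPM at A6m (Col4a1), and at 24.3, 18.7 and 16.0 TPM at P14 and 1.30, 1.22 and 1.68 TPM at A6m (Col4a2). Every adult library lay more than 5-fold under every P14 library for both chains. Of the chains of a separate collagen IV network, Col4a3, chosen after its values were seen, fell from 22.1 to 13.004 TPM, and Col4a4 went from 10.5 to 9.72 TPM without passing. Col26a1 fell from 9.18 ± 1.28 to 0.849 ± 0.495 TPM. Col9a3, at 239.7 to 275 TPM, and Col8a2, at 105 to 96.2 TPM, were the most abundant collagens that did not pass. The summed collagen level moved less than the median member, with 768 to 904 TPM at P14 and 561 to 697 TPM at A6m.

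Other genes of the matrix fell with them. Of 36 tested genes of fibroblasts and matrix, 1 rose and 23 fell, with a median of -0.61. Sparc, a secreted collagen-binding protein and 1 of the most abundant of these messengers, was measured at 855, 824 and 821 TPM at P14 and 179.8, 161 and 175 TPM at A6m. The difference of -2.27 ± 0.05 (SE), adjusted p = 3.6e-06, set the adult libraries well under the others, whereas Sparc had stood at 727 TPM at E12.5 and 945 TPM at P0. Postn, a matrix protein that binds collagen, fell from 83.3 ± 1.48 to 16.4 ± 0.610 TPM, the microfibril gene Fbn1 from 55.7 ± 5.94 to 13.4 ± 0.875 TPM and the collagen chaperone Serpinh1 from 175 ± 8.29 to 54.1 ± 0.868 TPM. Among the small proteoglycans of fibroblasts, Dcn went from 119 to 114 TPM and Lum from 50.3 to 43.0 TPM, and neither passed. Without P14 replicate 3 the number that rose was 4. Aspn, another small proteoglycan and 1 of the 12 largest falls, went from 12.3 ± 2.24 to 1.04 ± 0.416 TPM, after 1.80 TPM at E12.5 and 5.72 TPM at P0. Ppic, a cyclophilin, fell from 20.8 ± 2.37 to 2.40 ± 0.489 TPM, and Mme, the membrane peptidase neprilysin, from 19.5 ± 1.31 to 2.20 ± 0.627 TPM.

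Of 24 genes of basement membranes and integrins, 3 rose and 12 fell, with a median of -0.55. The linker Nid1 fell from 13.4 ± 2.49 to 2.66 ± 0.667 TPM and the heparan sulfate core protein Hspg2 from 19.7 ± 5.03 to 5.87 ± 0.164 TPM. Integrins went both ways: Itgb8, a subunit that activates latent TGF-beta, was measured at 59.0, 52.8 and 55.5 TPM at P14 and 168, 169.7 and 155 TPM at A6m, and Itga8 fell from 13.7 ± 3.30 to 5.03 ± 1.85 TPM. The laminin Lama5 went from 14.8 to 12.8 TPM and did not pass. The number of these genes that rose was 1 without P14 replicate 2, 1 without P14 replicate 3, 1 without A6m replicate 1 and 1 without A6m replicate 3.

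Genes that mark blood vessels fell nearly throughout. Of 23 endothelial genes tested, 0 rose and 20 fell, with a median of -1.05, and of 13 genes of mural cells, the pericytes and smooth muscle around vessels, 0 rose and 11 fell, with a median of -1.08 (7 fell without P14 replicate 1). Kdr, the main receptor for VEGF, was measured at 23.8, 19.9 and 20.6 TPM at P14 and 5.92, 5.61 and 6.36 TPM at A6m. Rgs5, a pericyte marker, was measured at 83.7, 60.2 and 69.1 TPM at P14 and 14.01, 9.01 and 15.6 TPM at A6m. The ages did not overlap for either gene. Emcn, a sialomucin of capillaries and veins, fell from 39.0 ± 6.15 to 10.3 ± 3.64 TPM, Cd34 from 8.84 ± 1.79 to 1.66 ± 0.637 TPM and Esm1 from 5.33 ± 1.21 to 1.16 ± 0.451 TPM. The receptor Pdgfrb fell from 7.69 ± 2.10 to 2.54 ± 0.631 TPM, smooth muscle actin Acta2 from 5.47 ± 0.458 to 1.61 ± 0.230 TPM and the pericyte channel subunit Kcnj8 from 2.74 ± 0.867 to 0.429 ± 0.151 TPM. Kcnj8 was under 1 TPM in every A6m library, so it passed the filter only through P14. The 3 endothelial genes that did not pass were Flt1 (3.36 to 1.47 TPM), Vwf (1.62 to 0.646 TPM) and Eng (6.74 to 3.89 TPM), each lower in the adult mean too. The summed endothelial level was 155 to 216 TPM at P14 and 50.3 to 82.6 TPM at A6m, and the summed mural level 97.4 to 135 TPM at P14 and 22.1 to 36.4 TPM at A6m. In bulk tissue, fewer cells of a type and less RNA per cell cannot be told apart.

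Of 8 red cell genes tested, 0 rose and 4 fell, with a median of -1.27. The adult beta globin Hbb-bs was measured at 413, 385 and 419.6 TPM at P14 and 132, 61.2 and 195 TPM at A6m, and Hbb-bt fell from 59.7 ± 5.99 to 17.1 ± 9.49 TPM. Hba-a1 and Hba-a2 are near-identical copies whose reads cannot be assigned with certainty, and the call of Hba-a1 was lost without any 1 of 4 libraries (adjusted p of 0.0751 without A6m replicate 1, and 0.116, 0.0905 and 0.0739 without P14 replicates 1, 2 and 3). After scaling, 2 erythroid members rose and 5 fell. The summed erythroid level was 900.3 to 1041 TPM at P14 and 278 to 630.4 TPM at A6m. What part blood in the vessels had in the endothelial values was not tested. Genes listed as markers of brain cells that could come along in a dissection were detected at both ages. Whether cells of the choroid plexus itself held these transcripts, Vim among them, was not tested. Of 6 neuron genes tested, Syt1 fell from 12.45 to 3.48 TPM and Snhg11 passed as higher, though its call was lost without any P14 library and without A6m replicate 1 or 3 (adjusted p of 0.0582 to 0.0809), and 9 of the 15 listed were under the filter. The number of neuron genes that fell was 2 without P14 replicate 1 or A6m replicate 1. The summed neuron level was 46.4 to 62.9 TPM at P14 and 32.0 to 37.6 TPM at A6m. Of 5 oligodendrocyte genes, 2 fell (1 without A6m replicate 3), and the myelin gene Mbp went from 28.2 to 17.5 TPM without passing; the summed level of that list was 54.0 to 78.7 TPM at P14 and 33.9 to 41.0 TPM at A6m. The summed level of 16 genes of astrocytes and ependyma, none of them under the filter, was 536 to 580.5 TPM at P14 and 339.7 to 391 TPM at A6m. Of these 16 genes, 3 rose and 6 fell, and the number that rose was 1 without P14 replicate 1, 1 without P14 replicate 2, 1 without A6m replicate 1 and 1 without A6m replicate 3. The gap junction gene Gja1 fell from 11.999 ± 3.57 to 4.62 ± 0.983 TPM, the glutamate transporter Slc1a3 from 10.4 ± 3.47 to 3.31 ± 0.417 TPM and the filament gene Vim from 87.3 ± 5.71 to 37.4 ± 6.08 TPM, while Gfap went from 7.43 to 8.21 TPM without passing.

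**Figure D2:**
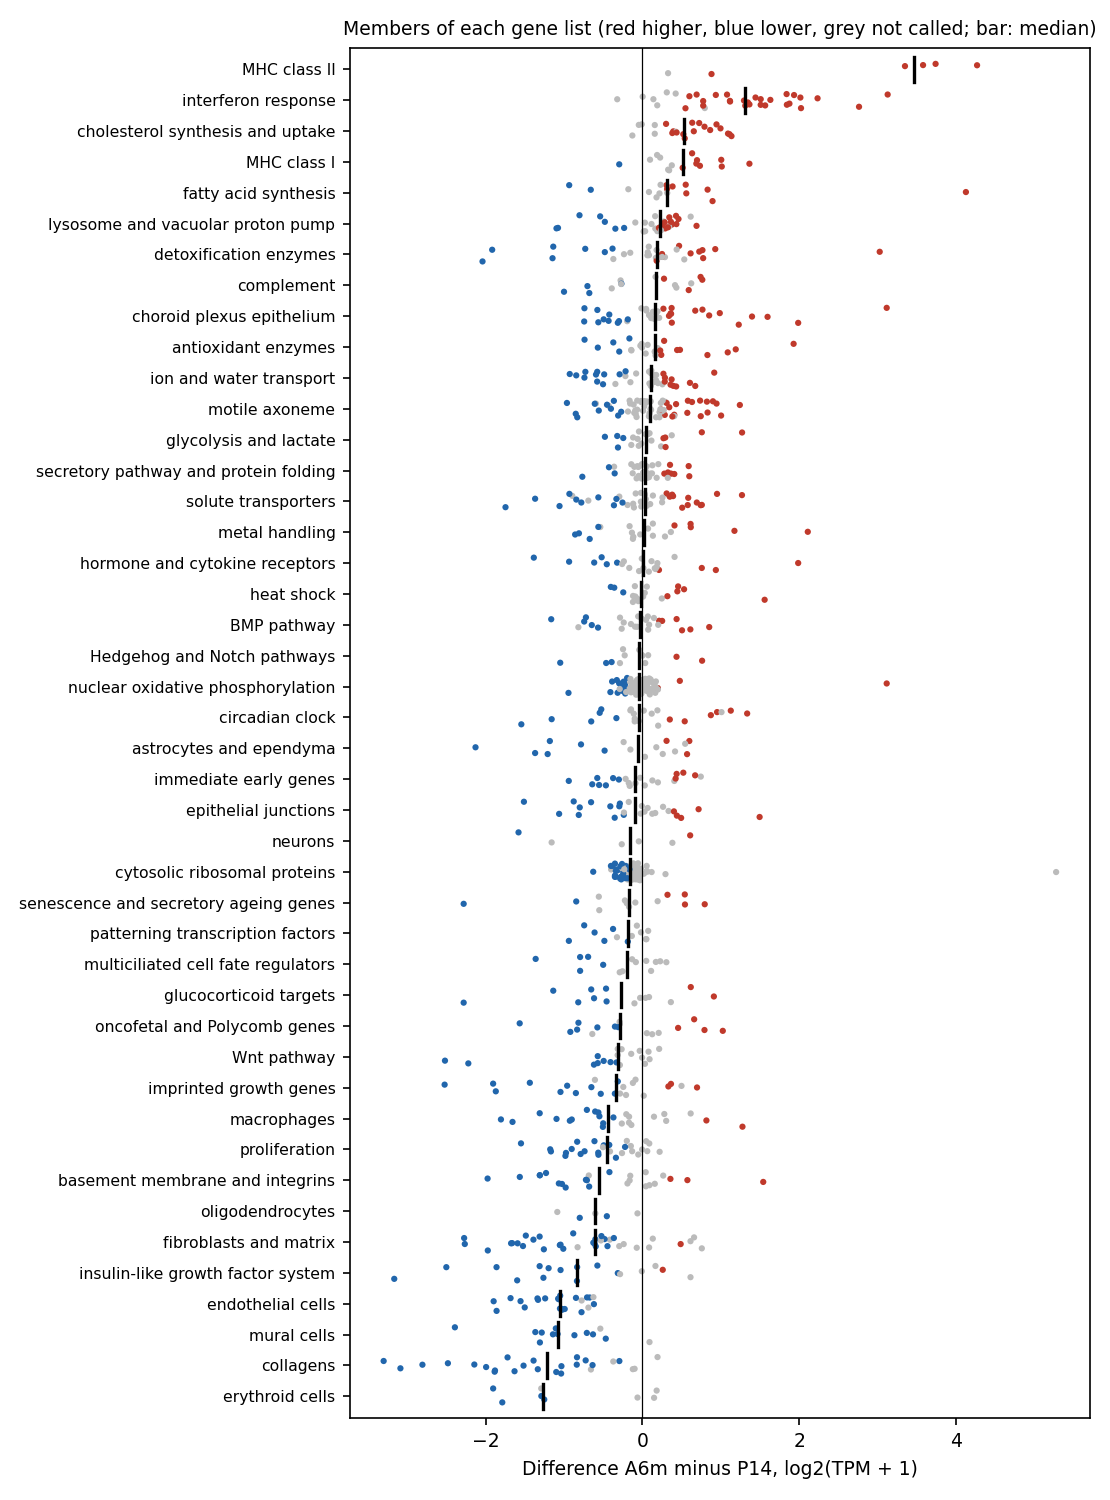
Each point is 1 gene of a list, with its difference between the ages in log2(TPM + 1) on the x axis, and the vertical bars are the list medians, ordered from the lowest to the highest. MHC class II and the interferon response stand at the top with medians of 3.47 and 1.30, and the erythroid, collagen, mural and endothelial lists at the bottom with medians of -1.27 to -1.05.

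Most genes of the insulin-like growth factor system fell. The insulin-like growth factors act through the receptor Igf1r and are held in the fluid by binding proteins. Of 17 members of this system tested, 1 rose and 12 fell, with a median of -0.84. The ligand Igf1 was measured at 26.3, 27.8 and 25.4 TPM at P14 and 1.80, 2.05 and 2.32 TPM at A6m. Its means had been 25.2 TPM at E12.5 and 28.6 TPM at P0, and the difference from P14 to A6m was -3.17 ± 0.09 (SE), adjusted p = 1.0e-05. The other ligand, Igf2, was measured at 1182, 1027 and 1014 TPM at P14 and 915, 828 and 842 TPM at A6m, a difference of -0.32 ± 0.07 (SE), adjusted p = 0.0182, which no longer passed without A6m replicate 2 (0.0604) or replicate 3 (0.0568) or with no filter on low values (0.0607). The binding protein Igfbp3 fell from 10.7 ± 3.32 to 2.18 ± 0.783 TPM, the protease Htra1 from 30.9 ± 1.37 to 4.63 ± 0.427 TPM and the RNA-binding protein gene Igf2bp2, a developmental regulator of Igf2 messenger, from 3.74 ± 0.250 to 0.564 ± 0.0734 TPM. Igf2bp2 was under 1 TPM in every A6m library, so it passed the filter only through P14. The receptors did not pass: Igf1r went from 15.05 to 17.0 TPM, Insr from 15.6 to 15.4 TPM and Igf2r from 35.9 to 29.1 TPM. The 1 member that rose was Irs2, an adaptor of the insulin receptor named after its values were seen, from 9.01 ± 0.331 to 10.98 ± 0.611 TPM, and no member rose without any 1 of the libraries other than P14 replicate 3.

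Imprinted genes, which are expressed from 1 parental copy and often act on growth, held more falls than rises: of 22 tested, 3 rose and 11 fell, with a median of -0.33. The maternally expressed long RNAs Meg3 and Rian, transcribed from 1 cluster, fell from 86.3 ± 12.2 to 23.1 ± 5.61 TPM and from 82.7 ± 5.14 to 30.0 ± 3.82 TPM. H19, the long RNA beside Igf2, fell from 12.2 ± 2.41 to 2.89 ± 2.37 TPM, and Ndn from 10.9 ± 0.217 to 1.06 ± 0.0386 TPM. The growth inhibitor Cdkn1c went from 128 to 129 TPM and Dlk1 from 66.4 to 93.7 TPM, and neither passed.

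Proliferation genes were low at P14 already. Of 28 proliferation genes tested, 0 rose and 16 fell, with a median of -0.46 (1 rose and 16 fell after scaling), and 17 of 45 listed were under the filter. Mki67, a protein of cycling nuclei, was measured at 1.34, 1.84 and 1.57 TPM at P14 and 0.162, 0.374 and 0.401 TPM at A6m, after 89.2 TPM at E12.5 and 7.36 TPM at P0. Top2a, which untangles chromosomes, fell from 3.21 ± 0.535 to 0.459 ± 0.376 TPM, Ccna2, a cyclin of S and G2 phase, from 3.56 ± 0.967 to 1.28 ± 0.284 TPM and Stmn1, a microtubule destabiliser, from 23.9 ± 4.63 to 9.90 ± 0.784 TPM. Mki67 and Top2a were under 1 TPM in every A6m library, so they passed the filter only through P14. The replication helicase genes Mcm2 (3.11 to 3.29 TPM) and Mcm7 (9.92 to 11.7 TPM) did not pass. The cell cycle inhibitor Cdkn1a was measured at 43.9, 42.3 and 48.1 TPM at P14 and 8.63, 7.67 and 8.87 TPM at A6m, a difference of -2.28 ± 0.08 (SE), adjusted p = 1.7e-05, and so fell together with the proliferation genes.

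Of 17 oncofetal and Polycomb genes tested, 4 rose and 7 fell, against 14.1% higher and 17.0% lower over all genes. The number that fell was 4 without P14 replicate 1, 4 without A6m replicate 2 and 4 without A6m replicate 3. The methyltransferase Dnmt3a, which sets new DNA methylation, was measured at 29.2, 26.8 and 28.2 TPM at P14 and 9.17, 9.11 and 8.14 TPM at A6m. Ezh2, a histone methyltransferase of Polycomb complex 2, fell from 8.83 ± 0.744 to 4.24 ± 1.04 TPM and the DNA demethylase Tet3 from 5.38 ± 0.549 to 2.62 ± 0.300 TPM, while Cbx7, a reader in Polycomb complex 1, rose from 6.54 ± 0.862 to 14.4 ± 2.05 TPM. The other core subunits of complex 2 did not pass, with Suz12 going from 31.3 to 32.5 TPM and Eed from 35.6 to 38.8 TPM. Fetal genes such as Lin28a, Lin28b and Hmga2 were under the filter.

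Markers of the epithelium moved both ways. Of 37 epithelial markers, 15 rose and 10 fell, with a median of 0.16 (20 rose and 9 fell after scaling, and 5 fell with all 12 libraries in the fit). As deposited, 14.1% of all genes rose and 17.0% fell. Ttr was measured at 151576, 164598 and 168699 TPM at P14 and 137436, 139480.0 and 146229 TPM at A6m; the ages did not overlap, but the difference of -0.20 ± 0.11 (SE) gave an adjusted p of 0.207, and 0.624 after scaling; it passed when the test was limited to genes averaging 5 TPM or more (0.0463). Otx2, the transcription factor that maintains the tissue, went from 387 to 401 TPM and did not pass. Prlr, the prolactin receptor, was measured at 156, 122 and 127 TPM at P14 and 563, 532 and 515 TPM at A6m. It stood at 0.668 TPM at E12.5 and 2.00 TPM at P0, so its level was higher at each later age. The difference from P14 was 1.99 ± 0.10 (SE), adjusted p = 4.5e-05. Kl, which encodes Klotho, the co-receptor for FGF23 that is also shed into the fluid, was measured at 534, 453 and 454 TPM at P14 and 924, 846 and 827 TPM at A6m, a difference of 0.85 ± 0.08 (SE), adjusted p = 5.0e-04. The retinol dehydrogenase Rdh5 rose from 88.4 ± 14.6 to 268 ± 30.2 TPM and Cdr2 from 46.2 ± 4.67 to 123 ± 6.09 TPM. Enpp2, the enzyme autotaxin that makes lysophosphatidic acid, rose from 22527 ± 1398 to 29183 ± 1191 TPM, though the adjusted p was 0.0514 without P14 replicate 2, 0.208 after quantile normalization, 0.457 with no filter on low values and 0.0936 with all 12 libraries. Folr1, which carries folate into the fluid, fell from 1357 ± 51.8 to 1011 ± 44.2 TPM.

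**Figure D3:**
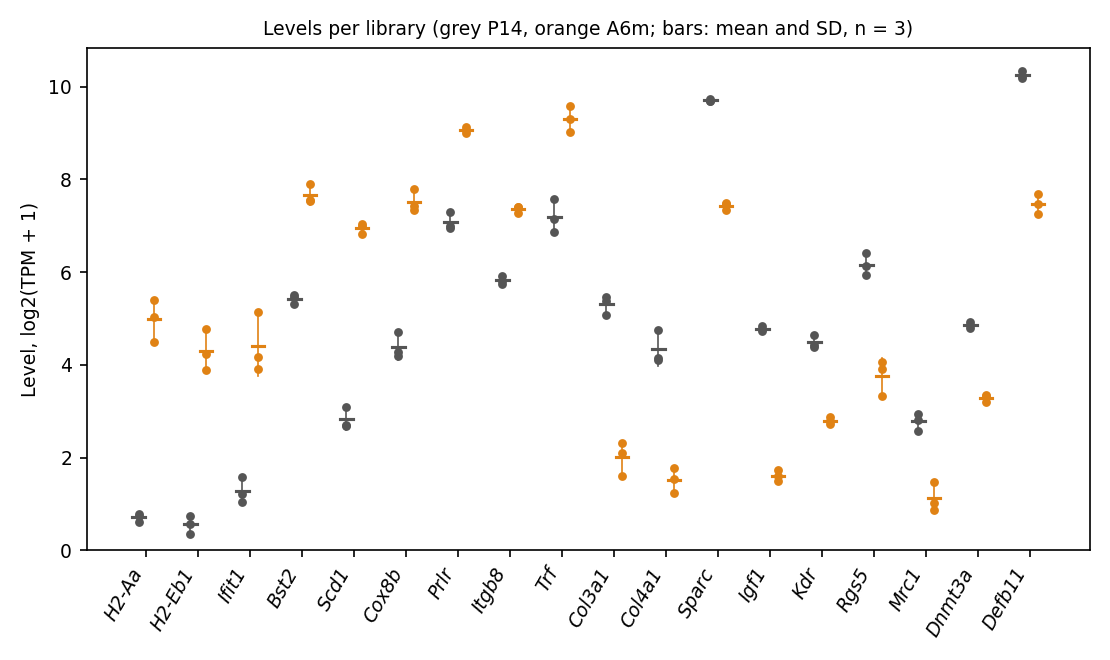
Levels of 18 genes in each library as log2(TPM + 1), with P14 in grey and A6m in orange; bars give the mean and SD of 3 libraries. The libraries of the 2 ages do not overlap for any of the 18 genes, of which H2-Aa to Trf were higher at A6m and Col3a1 to Defb11 lower. For H2-Aa and H2-Eb1 the lack of overlap follows from the filter. For Ifit1, Scd1, Cox8b, Col3a1, Col4a1, Igf1 and Defb11 it was a condition for a place among the largest changes, so it is no result.

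For ion and water transport, the work of fluid secretion, 10 of 36 genes tested rose and 11 fell, with a median of 0.11. Over all genes 14.1% rose and 17.0% fell. After scaling 17 rose and 9 fell, and without A6m replicate 3 the number that fell was 7. Aqp1, the water channel of the apical membrane, was measured at 289.8, 282 and 316 TPM at P14 and 177, 173 and 179 TPM at A6m, a difference of -0.74 ± 0.05 (SE), adjusted p = 2.1e-04, with an adjusted p of 0.0589 when all 12 libraries were fitted. Atp1b1, the beta subunit of the sodium pump, rose from 571 ± 43.9 to 1078 ± 46.2 TPM. The cotransporter Slc12a2 (NKCC1) went from 245 to 290.5 TPM with an adjusted p of 0.117, or 0.0430 after scaling and 0.0110 without P14 replicate 1. The osmosensor channel Trpv4 went from 83.2 to 88.2 TPM and passed only after scaling (0.0361). The chloride channel protein Clic6 rose from 467 ± 36.9 to 599 ± 42.8 TPM, with an adjusted p of 0.0752 when all 12 libraries were fitted. The bicarbonate cotransporter Slc4a4 fell from 3.51 ± 1.06 to 1.34 ± 0.259 TPM and the kinase Wnk4 from 6.34 ± 1.02 to 3.09 ± 0.594 TPM.

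Of 42 solute transporters tested, 12 rose and 10 fell, with a median of 0.03, against 14.1% higher and 17.0% lower over all genes. Slc6a15, a transporter of neutral amino acids, was measured at 80.2, 76.5 and 78.4 TPM at P14 and 22.7, 22.8 and 22.3 TPM at A6m. Abcg2, an efflux pump for drugs and urate, rose from 9.18 ± 0.823 to 23.7 ± 3.37 TPM, and Slc35f1 fell from 9.79 ± 0.581 to 4.18 ± 0.375 TPM. Abcg2 had stood at 56.3 TPM at E12.5 and 28.9 TPM at P0. The glucose transporter Slc2a1 went from 32.5 to 32.2 TPM and the folate transporter Slc46a1 from 20.7 to 21.3 TPM, and neither passed. Of 26 genes of epithelial junctions, 5 rose and 11 fell (8 and 11 after scaling; 3 rose without A6m replicate 3). The tight junction claudin Cldn1 fell from 228 ± 9.78 to 109 ± 1.51 TPM and the junction protein Jam3 from 45.1 ± 3.14 to 15.2 ± 1.81 TPM. Among cadherins, Cdh1 rose from 2.23 ± 0.811 to 7.98 ± 1.04 TPM and Cdh3 fell from 37.8 ± 4.15 to 20.02 ± 1.03 TPM. The X-linked Cldn2, which forms water and cation pores and is not a member, went from 278 to 223 TPM.

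Of 23 hormone and cytokine receptors, 4 rose and 6 fell, against 14.1% higher and 17.0% lower over all genes. Beside Prlr, the natriuretic peptide receptor Npr3 rose from 35.2 ± 1.99 to 68.3 ± 2.31 TPM. The endothelin receptors Ednrb and Ednra fell from 87.6 ± 1.10 to 32.9 ± 1.11 TPM and from 2.34 ± 0.401 to 0.744 ± 0.230 TPM. The growth hormone receptor Ghr went from 18.9 to 18.4 TPM without passing. Estrogen and progesterone receptors (Esr1, Pgr) were under the filter.

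Genes of cholesterol synthesis rose or did not pass. The cholesterol pathway builds sterols from acetyl-CoA and its genes are known targets of the factor SREBP2. Of 22 tested, 16 rose and 0 fell, with a median of 0.53. Fdps, which makes farnesyl pyrophosphate, was measured at 26.8, 23.6 and 25.8 TPM at P14 and 54.4, 58.9 and 57.7 TPM at A6m, and the ages did not overlap. Idi1 rose from 16.4 ± 1.54 to 36.5 ± 2.32 TPM and the sterol sensor Insig1 from 17.8 ± 0.786 to 39.4 ± 6.52 TPM. Hmgcs1 went from 101 to 113 TPM and did not pass. A sterol regulatory element (TCACNCCAC, both strands) was found in the promoter of 1 of 15 pathway genes with a promoter, Hmgcs1, and in 1.29% of all genes tested.

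Of 16 genes of fatty acid synthesis, 8 rose and 2 fell, with a median of 0.31. Scd1, the desaturase that makes oleic acid, was measured at 7.56, 5.43 and 5.49 TPM at P14 and 127, 113 and 131 TPM at A6m. The adult libraries were all more than 10-fold above the P14 libraries, and the difference was 4.13 ± 0.12 (SE), adjusted p = 1.1e-05; the level had been 6.71 TPM at E12.5 and 4.30 TPM at P0. Acaca, which makes malonyl-CoA, rose from 7.81 ± 1.23 to 15.3 ± 1.44 TPM and the desaturase Fads1 from 88.2 ± 8.07 to 158 ± 11.3 TPM, while Acsl3, which activates fatty acids, fell from 25.4 ± 2.16 to 12.9 ± 1.72 TPM. Fasn went from 11.2 to 13.3 TPM and did not pass.

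Most genes of oxidative phosphorylation, the respiratory chain and ATP synthase of mitochondria, did not pass. Of 75 nuclear genes tested, 3 rose and 15 fell, with a median of -0.04, and after scaling 7 rose and 10 fell. The shares over all genes as deposited were 14.1% higher and 17.0% lower. The number that fell was 8 without P14 replicate 1, 8 without P14 replicate 3, 8 without A6m replicate 1 and 9 without A6m replicate 2. Cox8b, the muscle and brown fat form of a cytochrome oxidase subunit, was measured at 17.4, 18.3 and 25.3 TPM at P14 and 161, 170.1 and 220.2 TPM at A6m, a difference of 3.12 ± 0.17 (SE), adjusted p = 7.0e-05, after 0.263 TPM at E12.5 and 0.223 TPM at P0. Its common form Cox8a went from 629 to 592 TPM and did not pass, so Cox8b remained below it in the adult mean. The other such form, Cox7a1, rose from 26.5 ± 3.51 to 37.1 ± 0.873 TPM (adjusted p of 0.0563 with all 12 libraries), and Cox4i2, a subunit form also found in pericytes, fell from 2.05 ± 0.445 to 0.576 ± 0.158 TPM. Cox4i2 passed the filter only through P14. Of the ATP synthase, Atp5o fell from 456 ± 38.0 to 343 ± 13.3 TPM and Atp5b went from 964 to 919.8 TPM without passing. Transcripts of the mitochondrial genome took 28.7 to 32.6% of TPM at P14 and 31.3 to 34.0% at A6m. Of 76 cytosolic ribosomal protein genes, 0 rose and 27 fell, with a median of -0.16; 1 rose and 17 fell after scaling, 17 fell without A6m replicate 1, and 2 rose without P14 replicate 3. These genes share reads with many processed copies in the genome, so single members such as Rpl29 (260.3 to 168 TPM) and Rps2 (310.4 to 235 TPM) are uncertain.

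Antioxidant and detoxification genes went both ways. Of 25 antioxidant genes, 9 rose and 5 fell, against 14.1% higher and 17.0% lower over all genes. Gpx3, a secreted glutathione peroxidase, was measured at 14.5, 15.3 and 17.7 TPM at P14 and 57.0, 47.2 and 92.8 TPM at A6m. The heme oxygenase Hmox1 rose from 4.57 ± 0.431 to 11.7 ± 1.37 TPM, the quinone reductase Nqo1 from 36.2 ± 3.55 to 78.1 ± 6.26 TPM and the extracellular superoxide dismutase Sod3 from 40.1 ± 3.68 to 72.3 ± 10.5 TPM. Their regulator Nfe2l2 went from 61.1 to 64.0 TPM and did not pass. Of 31 detoxification genes, 10 rose and 7 fell, and the number that rose was 6 without A6m replicate 1 and 6 without A6m replicate 3. The sulfotransferase Sult1c2 rose from 1.13 ± 0.283 to 16.4 ± 1.46 TPM, while the glucuronosyltransferase Ugt1a6a fell from 31.5 ± 2.21 to 6.86 ± 0.182 TPM and the monooxygenase Fmo1 from 18.1 ± 0.1002 to 4.20 ± 1.40 TPM.

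Of 20 genes of metal handling, 5 rose and 4 fell. For this list and those that follow, the shares over all genes were 14.1% higher and 17.0% lower. Trf, which encodes transferrin, the iron carrier of blood and cerebrospinal fluid, was measured at 116, 140.1 and 191 TPM at P14 and 519, 636 and 771 TPM at A6m, a difference of 2.11 ± 0.21 (SE), adjusted p = 6.2e-04. The zinc importer Slc39a4 rose from 15.03 ± 1.13 to 35.1 ± 0.712 TPM and the ferrireductase Steap3 fell from 6.80 ± 1.31 to 3.42 ± 0.485 TPM. The transferrin receptor Tfrc went from 17.5 to 12.03 TPM and did not pass. Of 33 lysosomal genes, 13 rose and 7 fell, with a median of 0.22. The sterol-binding Npc2 rose from 60.9 ± 3.73 to 98.8 ± 4.02 TPM, and the cathepsins Ctsl, Ctsh and Ctsk fell from 314 ± 22.2 to 179 ± 5.65 TPM, from 53.8 ± 3.43 to 25.01 ± 2.53 TPM and from 10.3 ± 1.17 to 4.31 ± 1.13 TPM. Of 35 genes of the secretory pathway 7 rose and 3 fell, of 18 heat shock genes 5 rose and 3 fell, and of 21 glycolysis genes 5 rose and 4 fell. Hspb1, a small chaperone, rose from 8.49 ± 1.29 to 26.8 ± 1.08 TPM, Hsp90aa1 from 665 ± 52.8 to 963 ± 114 TPM and the neuronal enolase Eno2 from 13.3 ± 1.51 to 33.7 ± 3.67 TPM. The translocon gene Ssr2 fell from 48.2 ± 2.30 to 27.98 ± 2.88 TPM and Sec63 rose from 41.6 ± 2.45 to 63.1 ± 3.13 TPM.

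Regulators of the multiciliated fate fell or did not pass as deposited, and axoneme genes went both ways. Of 14 such regulators tested, 0 rose and 5 fell (1 rose and 5 fell after scaling). Gmnc, which starts the programme, was measured at 66.5, 59.3 and 57.9 TPM at P14 and 36.5, 37.6 and 38.0 TPM at A6m, after 128 TPM at E12.5 and 92.4 TPM at P0. Deup1, which builds the deuterosome on which centrioles multiply, fell from 3.74 ± 0.585 to 0.836 ± 0.153 TPM, the centriole kinase Plk4 from 3.33 ± 0.465 to 1.51 ± 0.409 TPM and the transcription factor Rfx3 from 24.8 ± 0.517 to 17.3 ± 1.63 TPM. Foxj1, the factor that drives motile cilia genes, went from 63.8 to 60.05 TPM with an adjusted p of 0.265. Of 62 genes of the motile axoneme, 18 rose and 10 fell, with a median of 0.10. The shares over all genes were 14.1% higher and 17.0% lower. After scaling 23 axoneme genes rose and 8 fell, and without A6m replicate 3, as deposited, 6 fell. Cfap65 rose from 15.2 ± 1.93 to 37.5 ± 6.93 TPM, the adenylate kinase Ak8 from 9.75 ± 0.455 to 20.6 ± 0.153 TPM and the dynein heavy chain Dnah3 from 0.613 ± 0.176 to 2.13 ± 0.561 TPM. Dnah3 passed the filter only through A6m. Ccdc40, which sets the spacing along the axoneme, fell from 5.38 ± 0.423 to 2.30 ± 0.566 TPM, while its partner Ccdc39 went from 91.4 to 81.3 TPM and did not pass.

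Clock genes rose and fell in equal number as deposited. The circadian clock runs on a loop in which Arntl and Clock activate genes that later repress them, and the labels give no time of dissection, so time of day and age cannot be told apart. Of 23 tested, 6 rose and 6 fell, against 14.1% higher and 17.0% lower over all genes. Arntl was measured at 7.71, 7.44 and 7.02 TPM at P14 and 2.75, 2.82 and 2.69 TPM at A6m. Nr1d1, which represses Arntl, was measured at 6.34, 6.82 and 7.10 TPM at P14 and 23.9, 13.8 and 19.3 TPM at A6m. Arntl was thus low in all the libraries in which Nr1d1 was high. Dbp, an output gene that Arntl and Clock activate, rose from 25.1 ± 0.165 to 56.7 ± 9.69 TPM, and Nfil3, which binds the same sites as Dbp, fell from 11.7 ± 0.659 to 3.33 ± 0.0513 TPM. Clock went from 27.3 to 26.4 TPM and Per2 from 4.34 to 4.78 TPM, and neither passed. The E-box (CACGTG, both strands) was found in the promoters of 5 of 18 clock genes, against 9.71% of all genes tested. It was found in 1 of 5 that rose, 2 of 5 that fell and 2 of 8 that did not pass. The list was made of clock genes, so its share of matches goes with that choice and is no result about age. Of 21 immediate early genes, which respond to handling within minutes, 4 rose and 7 fell, but the number that fell was 2 without P14 replicate 1, 3 without P14 replicate 2, 2 without P14 replicate 3, 3 without A6m replicate 1, 3 without A6m replicate 2 and 3 without A6m replicate 3, and the number that rose was 1 without P14 replicate 1, 2 without P14 replicate 2, 1 without P14 replicate 3, 1 without A6m replicate 1 and 1 without A6m replicate 3. Btg2 fell from 9.92 ± 1.147 to 5.97 ± 0.0280 TPM and Klf2, also an endothelial factor, from 3.26 ± 0.624 to 1.23 ± 0.410 TPM, whereas Fos went from 1.06 to 1.41 TPM without passing. Of 14 glucocorticoid targets, 2 rose and 7 fell, and the number that fell was 4 without P14 replicate 1 and 4 without P14 replicate 3. Sult1a1 fell from 52.0 ± 2.64 to 23.1 ± 2.41 TPM, and Sgk1 went from 230.3 to 215 TPM without passing.

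Among developmental pathways, the Wnt list held falls and no rises. Of 19 Wnt pathway genes tested, 0 rose and 8 fell, and 18 of 37 listed were under the filter; without P14 replicate 1, 1 rose. The ligand Wnt5a was measured at 18.4, 16.8 and 16.6 TPM at P14 and 2.46, 1.59 and 2.59 TPM at A6m, and the inhibitor Nkd1 fell from 6.78 ± 0.0591 to 0.674 ± 0.218 TPM. Nkd1, and Bmper below, passed the filter only through P14. Axin2, a common readout of the pathway, went from 13.6 to 12.2 TPM and did not pass. Of 26 BMP genes, 6 rose and 5 fell: the antagonist Bmper fell from 2.89 ± 0.259 to 0.732 ± 0.0559 TPM and the ligand Bmp5 from 4.16 ± 0.489 to 2.12 ± 0.136 TPM, and the receptor Bmpr1b rose from 2.22 ± 0.228 to 4.82 ± 0.411 TPM. Of 13 Hedgehog and Notch genes, 2 rose and 3 fell, near the shares of all genes (14.1% higher and 17.0% lower). The co-receptor Cdon fell from 12.9 ± 0.652 to 5.74 ± 0.774 TPM and the Notch target Hey1 rose from 3.44 ± 0.128 to 6.61 ± 1.41 TPM. Of 13 patterning transcription factors, 0 rose and 6 fell. Lmx1b fell from 3.22 ± 0.716 to 1.21 ± 0.460 TPM and Msx1 from 189 ± 9.32 to 112 ± 3.51 TPM. Of 13 genes linked to senescence, 4 rose and 2 fell, the number that rose being 2 without P14 replicate 2, 2 without P14 replicate 3, 2 without A6m replicate 1 and 2 without A6m replicate 3, and the number that fell 4 without A6m replicate 3. The adhesion molecule Icam1 rose from 2.18 ± 0.155 to 4.55 ± 0.713 TPM and the lysosomal galactosidase Glb1 fell from 76.6 ± 3.15 to 42.2 ± 2.10 TPM, while Cdkn2a was under the filter.

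Several of the largest changes belonged to no list. Spink8, a serine protease inhibitor, was measured at 0.0702, 0 and 2.18 TPM at P14 and 31.5, 22.4 and 147 TPM at A6m. A6m replicate 3 stood far above the other adult libraries, all of which were above P14, and the difference was 5.005 ± 0.76 (SE), adjusted p = 0.00335. B4galnt3, a glycosyltransferase, was measured at 0.0833, 0.126 and 0.0290 TPM at P14 and 22.3, 15.6 and 22.2 TPM at A6m, a difference of 4.27 ± 0.15 (SE), adjusted p = 1.9e-05, and stood at 0.128 TPM at E12.5 and 0.836 TPM at P0, so only the adult libraries held it above 1 TPM on average. Tlx2, a homeobox gene, was listed at 0 in the P14 libraries and at 12.505, 9.53 and 11.4 TPM at A6m, and Ceacam16, a gene of the inner ear, went from 0.0591 ± 0.0598 to 12.9 ± 5.05 TPM. B4galnt3, Tlx2 and Ceacam16 were under 1 TPM in every P14 library, so they passed the filter only through A6m. A lack of overlap was also a condition for naming the largest changes, so it is no result for them. The carboxypeptidase-like Cpxm2 rose from 1.95 ± 0.195 to 27.9 ± 8.10 TPM.

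Among the falls, 3 beta-defensins, small secreted antimicrobial peptides, were in the 12 largest. Defb11 was measured at 1201, 1167 and 1297 TPM at P14 and 177, 205 and 151 TPM at A6m, a difference of -2.78 ± 0.11 (SE), adjusted p = 2.3e-05, and had stood at 458 TPM at E12.5 and 1254 TPM at P0. Defb9 fell from 63.3 ± 8.27 to 9.09 ± 2.85 TPM and Defb35 from 14.4 ± 0.849 to 1.37 ± 1.41 TPM. All 3 lie on chromosome 8, and beta-defensins of a cluster resemble each other, so how reads were shared among them is uncertain. Nefh, the heavy neurofilament subunit, was measured at 32.5, 24.6 and 29.2 TPM at P14 and 1.69, 4.12 and 1.45 TPM at A6m, against 0.207 TPM at E12.5 and 0.420 TPM at P0, so its mean was high at P14 alone among the 4 ages, while the other neurofilament genes Nefl and Nefm were under the filter. Prkar2b, a regulatory subunit of protein kinase A, fell from 11.8 ± 0.583 to 0.933 ± 0.170 TPM.

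**Figure D4:**
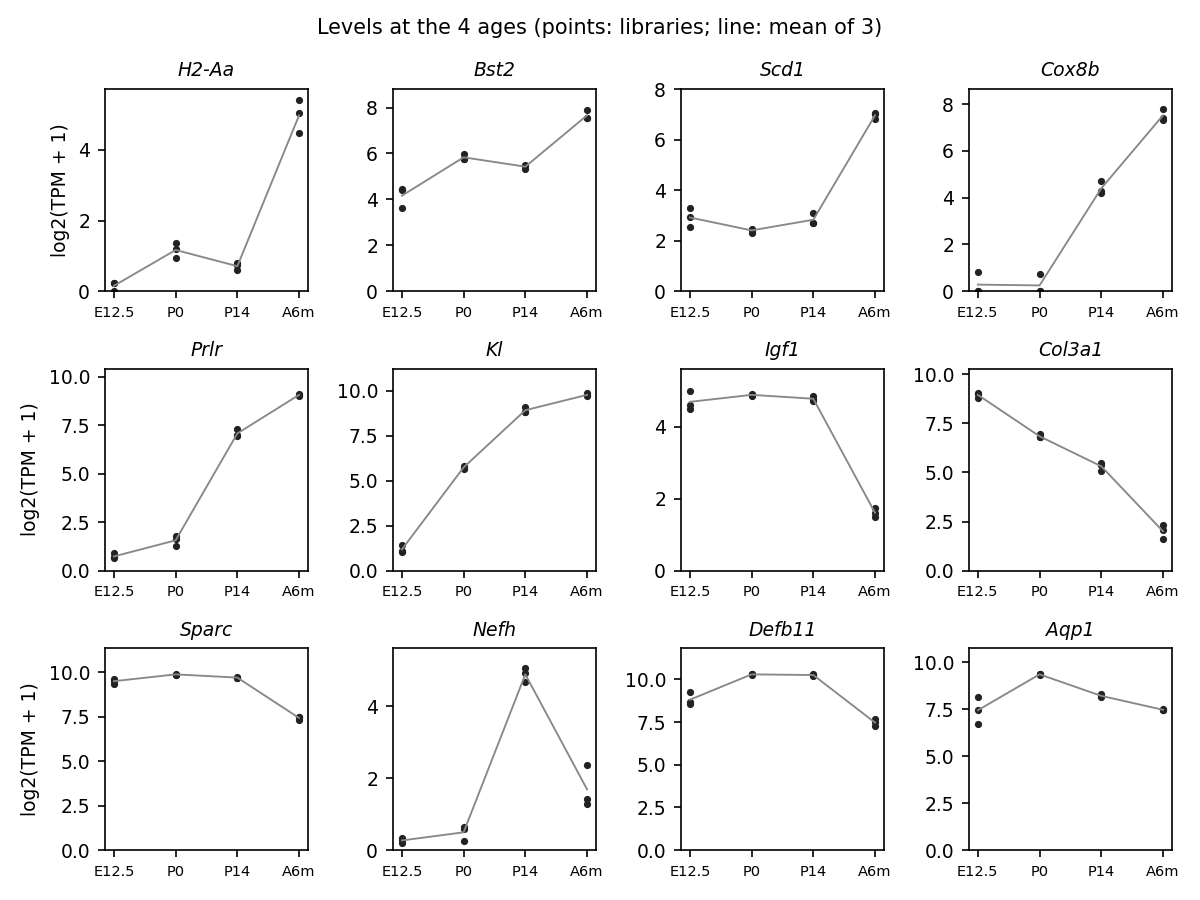
Levels of 12 genes at the 4 ages in log2(TPM + 1), each panel with its own y axis; points are libraries and the line joins the means of 3. H2-Aa and Scd1 were low until P14, Prlr and Kl were higher at each later age, Igf1 and Sparc had their lowest means at A6m, Col3a1 was lower at each later age, and Nefh was high at P14 alone.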

How the data were processed

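The authors deposited 1 table of TPM values per gene symbol and library; per the submitters' processing notes kallisto and GRCm38 were used, and the step from transcripts to genes is not given in the sources used here. Of its 19 value columns, 12 matched a labelled sample and 7 were not used. Chromosomes came from GENCODE M21 (97.5% of the symbols that passed were found), with RefSeq synonyms for 112 genes. Genes with at least 1 TPM in at least 3 of 6 libraries were tested on log2(TPM + 1) with limma 3.58.1 (R 4.3.3; empirical Bayes with a trend, 4 residual degrees of freedom), adjusted by Benjamini-Hochberg over 14295 genes. The second scale divided each library by its median ratio over 20167 genes above 0 in all 6 libraries (factors 0.940 to 1.05). Genes named are the 12 largest rises and 12 largest falls called on both scales, where the ages did not overlap and the age with more averaged 10 TPM or more. To these come up to 4 called members of each of 46 lists (2 TPM or more), 16 genes of the tissue and uncalled list members. Some genes that this rule names are not reported here. The members and lists were chosen with earlier results of these data known. The 46 lists hold 1330 genes, 1053 of them tested and 39 of those on more than 1 list. Of the members, 81 share identical values with another symbol. Alternatives were other pseudocounts, filters and scalings, 9 or 12 libraries, array weights, a replicate block, a threshold on the fold, leaving out each library and, chosen after seeing the data, protein-coding genes only. Figures were drawn with matplotlib 3.10.9.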

Additional observations from a re-analysis of the deposited data

How the results depend on the processing

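Called genes numbered 4205, and every alternative but 1 kept that count within 1.5 times: testing against a 1.5-fold difference (limma's treat) left 502 genes, 233 higher and 269 lower. Leaving out 1 library gave 3190 to 3601 calls, 1366 to 1809 of them higher and 1655 to 2111 lower (3701 to 4091 calls, 2055 to 2198 higher and 1646 to 1893 lower after scaling). Signs and single genes were not compared in the scaled runs that left out a library or used the replicate block. In all other alternatives no called gene that was tested changed sign. Of 193 named genes, 175 kept their side of the threshold wherever tested in these, other than under treat, which ended the call of 92. The replicate numbers did not pair the libraries: deviations of same-numbered P14 and A6m libraries correlated at 0.0045, 0.0900 and -0.0153. With the replicate block 4310 genes passed (1962 higher and 2348 lower), 3843 of them shared with the 4205, and 4244 after scaling (2286 higher and 1958 lower). With no filter 3659 passed, with a mean of at least 5 TPM 3154, after quantile normalization 4898 and with all 12 libraries 3401. That filter at 5 TPM left 8 endothelial, 2 mural and 11 collagen genes that fell, since fewer were tested. Of the counts of list members under the alternatives in which single genes were compared, 1623 stayed within 1.5 times of the count reported and 217 did not. TPM values hold no depth, so counting error is unknown.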

Other observations

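The gene with the largest difference and the gene with the smallest were a pair that did not pass: Rps27, a ribosomal protein gene, and Rps27rt, its retrotransposed copy. Rps27 was listed at 5.94, 3.07 and 1249.9 TPM at P14 and at 1221, 1243 and 1374 TPM at A6m, and Rps27rt at 1001, 1008 and 4.84 TPM at P14 and at 4.39, 6.73 and 3.38 TPM at A6m. Their sum was 1006, 1011 and 1255 TPM at P14 and 1225, 1249 and 1377 TPM at A6m. At the younger ages 5 of 6 libraries carried the level under Rps27, and P0 replicate 3 under Rps27rt (8.99 and 1766 TPM). So 3 of the 12 libraries, 2 of them at P14, list the level under the copy; the cause was not tested. This pair was chosen after its values were seen.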
